A study of Mus musculus with 24 samples.

Results

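The clustered protocadherins are cell-surface cadherins of neurons encoded in 3 neighbouring gene clusters, alpha, beta and gamma. The members were the rows annotated as protein coding whose names begin Pcdha, Pcdhac, Pcdhb, Pcdhga, Pcdhgb or Pcdhgc and belong to these clusters. The rule found 57 of 54532 genes in the table, of which 14 were alpha, 22 beta and 21 gamma genes. It left out 1 further name, Pcdhgb8, which the table lists as a polymorphic pseudogene. No row was named Pcdha10, and 2 rows were named Pcdha11, so these are told apart by their identifiers (ENSMUSG00000007440 and ENSMUSG00000102206).

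In the alpha and gamma clusters each gene has its own large first exon, which encodes the extracellular cadherin repeats, and all genes of a cluster splice to the same constant exons, while beta genes are read from a single large exon. Each neuron switches on a small, largely random choice of promoters through CTCF and cohesin looping to distal enhancers. The C-type genes at the end of the alpha and gamma clusters are instead used in most neurons. The proteins bind like copies on facing membranes, and this code lets a neuron tell its own branches from those of other neurons.

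Brain RNA was sequenced in 24 male wild-type C57Bl6 mice aged 8 to 12 weeks, 6 in each of 4 groups. The study gave amnion epithelial cells to mice made hypertensive by angiotensin II, with effects on vessel stiffening and cognition in view, and brain RNA was one of its readouts. The vehicle group received saline (0.9%) and the angiotensin II group 0.7 mg/kg/d of the peptide, each for 2 weeks from an osmotic minipump. The vehicle + amnion epithelial cells and angiotensin II + amnion epithelial cells groups had in addition 1000000 cells, taken from human term placentae, injected into the tail vein, where the other groups had saline. The samples were brain hemispheres, so every value is an average over all cell types of the tissue, and fewer cells of a type and less RNA per cell cannot be told apart. Levels are given as FPKM, fragments per kilobase of exon per 1000000 mapped fragments, as the authors deposited them. The fragments behind each value could be recovered as whole numbers and came to 16536449 to 25308700 per mouse.

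The libraries fell into 2 sets that the labels do not name. The sum of FPKM over all genes was 277116 to 298301 in 18 libraries and 338334 to 348597 in the other 6. The 6 comprised vehicle mice 5 and 6, angiotensin II mouse 5, vehicle + amnion epithelial cells mouse 6 and angiotensin II + amnion epithelial cells mice 5 and 6. Reads in the 6 fell on shorter genes, with a mean gene length per read of 5010 to 5107 bases against 5704 to 5992, and mitochondrial genes took 6.17 to 6.85% of their reads against 4.79 to 5.75%. Because the members differed strongly between these sets, levels are described in the 18 libraries and the group comparisons are given with and without the 6.

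In GRCm38, the build of the table, the members lie on chromosome 18, with the alpha genes between 36930184 and 37187661, the beta genes between 37264938 and 37524479 and the gamma genes between 37661793 and 37841873. The exon lengths used by the authors equalled the merged exons of GENCODE M21 for 57 of 57 members. The shared constant exons matter for what FPKM means here. Every alpha gene shared 2860 to 2864 exon bases with other alpha genes, and every gamma gene shared at least 2116 with other members. By contrast 19 of 22 beta genes shared no exon base with any other gene. The 3 readthrough models that overlap 22 members each and have no exon base of their own (Gm37013, Gm37388 and Gm42416) had 0 reads in every mouse. FPKM divides by all exon bases, so the levels of alpha and gamma genes were also computed per unique base, one found in no other gene on either strand.

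Gamma genes held most of the family's RNA. In the 18 libraries the summed level was 70.1 ± 3.99 FPKM (SD, n = 18), of which gamma genes gave 55.2 ± 1.28%, beta genes 36.2 ± 1.14% and alpha genes 8.67 ± 0.624%. Per unique exon base the shares in the same libraries were 66.7 ± 1.35% for gamma, 22.4 ± 0.996% for beta and 10.9 ± 0.843% for alpha genes. The mean level of single members ran from 0.00463 to 7.13 FPKM with a median of 0.911, and 27 of 57 members had a mean of at least 1 FPKM. All 57 were above 0 in at least 6 mice and entered the tests. Reads were nevertheless few for some, since 41 of 57 had more than 3 reads in every mouse and 1, Pcdha4, never exceeded 3.

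**Figure D1:**
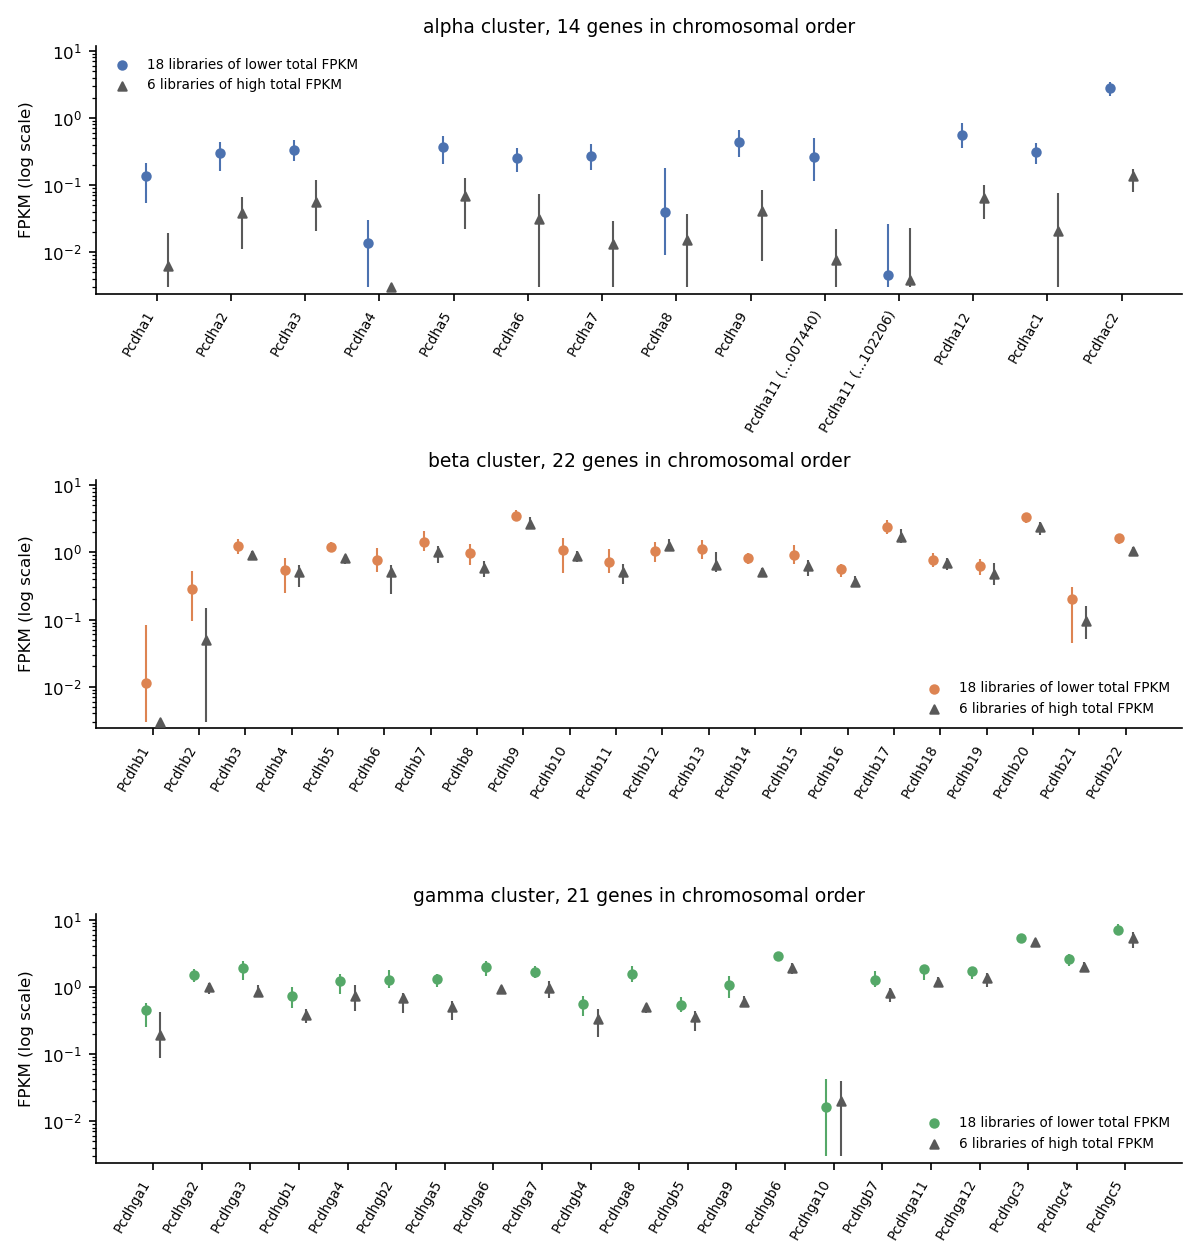
Level of each of the 57 clustered protocadherin genes in FPKM (log axis) in chromosomal order, one panel per cluster. Coloured circles are means of the 18 libraries of lower total FPKM and grey triangles means of the 6 libraries of high total FPKM, vertical lines run from the lowest to the highest library, and values of 0 are drawn at the bottom end of the axis; the triangles lie far below the circles for most alpha genes and close to them for most beta genes.

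A pair of gamma C-type genes had the highest mean levels in FPKM. Pcdhgc5, which binds a GABA-A receptor subunit, was the highest member, with 6.08 FPKM in the lowest of the 18 libraries and 8.69 in the highest (mean 7.13 ± 0.751, SD). Pcdhgc3, a partner of Axin1 in dendrite growth, followed with 4.78 to 6.14 FPKM (5.39 ± 0.346). Pcdhgc4, which supports the survival of interneurons, had 2.01 to 3.10 FPKM (2.63 ± 0.299) and was below Pcdhgb6 in 16 of 18 libraries. Together with the 2 alpha C-type genes they made up 26.0 ± 0.879% of the family's FPKM in the 18 libraries.

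The order of Pcdhgc5 and Pcdhgc3 depended on how length was counted. By FPKM Pcdhgc5 was higher in 18 of 18 libraries and in 22 of 24. Per unique exon base Pcdhgc5 was higher in 0 of 24, with 12.3 reads per kilobase of unique exon per 1000000 reads for Pcdhgc5 and 16.9 for Pcdhgc3 in the 18 libraries, over 4606 and 1821 unique bases. A gene on the opposite strand, BC037039, covers part of Pcdhgc3. Where only exons of the same strand counted as shared, a choice made after seeing the data, Pcdhgc3 had 3380 unique bases and 9.13 reads per kilobase, and Pcdhgc5 was again higher in 18 of 18 and in 22 of 24 libraries. Pcdhgb6 (2.89 ± 0.289 FPKM) and Pcdhga11 (1.84 ± 0.244 FPKM) behaved alike. Pcdhgb6 was higher in 18 of 18 by FPKM and with only the same strand counted, and Pcdhga11, which Gm26672 overlaps on the opposite strand, was higher in 17 of 18 per base unique on both strands. These orders can therefore not be settled without the authors' use of strand, which is not given in the sources used here. Across the 56 members with any unique base the 2 scales ranked genes alike (Spearman's rho = 0.92, a description across genes that share libraries).

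Gamma genes of the A type, 12 in number, had mean levels of 0.0164 to 1.99 FPKM in the 18 libraries with a median of 1.54. The 6 of the B type ran from 0.536 to 2.89 FPKM with a median of 0.986. Pcdhga10 was the exception at the low end, with 0 to 4 reads per mouse. All of its bases lie under exons of other genes, among them Gm26672 on the opposite strand, and the counting and its use of strand are not given in the sources used here, so its level is uncertain.

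Among beta genes, which share no constant exon and so signal without the common cytoplasmic tail, Pcdhb9 was highest at 2.99 to 4.24 FPKM (3.52 ± 0.349) and Pcdhb20 next at 2.77 to 3.91 (3.38 ± 0.307). These neighbours kept their order in only 13 of 18 libraries. Both were above Pcdhb17 (2.38 ± 0.297 FPKM), which lay below Pcdhb20 in 18 of 18. At the other end Pcdhb1 had 0 to 4 reads per mouse and a mean of 0.0113 FPKM. It is listed at 0 in 17 of 24 mice. Most of the other beta genes lay close together, and the order of neighbours held in 18 of 18 libraries for only 3 of 21 neighbouring pairs.

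In the alpha cluster 1 gene stood apart. Pcdhac2, needed for the even spread of serotonin axons, had 2.14 to 3.40 FPKM in the 18 libraries (2.79 ± 0.366) and was above the next gene, Pcdha12 (0.56 ± 0.151 FPKM), in all 18. The other C-type gene, Pcdhac1, had 0.208 to 0.425 FPKM and was not set apart from the remaining alpha genes: it was above its lower neighbour Pcdha2 in 9 of 18 libraries. The 12 genes Pcdha1 to Pcdha12 had a median of 0.266 FPKM. The lowest were Pcdha11 (ENSMUSG00000102206) at 0 to 4 reads and Pcdha4 at 0 to 3 reads per mouse. These 2 have only 1268 and 404 unique bases, since other gene models cover the rest of their variable exons.

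Over all 3 clusters the order of neighbouring genes held in every one of the 18 libraries for 8 of 54 pairs, so most steps in the order are smaller than the spread between mice. For the 49 members with a median of at least 20 reads the coefficient of variation over the 18 libraries was 6.43 to 34.4% with a median of 15.9%. Counting error alone gives a median of 10.7% for the same genes. The coefficient was above the counting error in 49 of 49.

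The strongest difference within the family was between the 2 sets of libraries, which were split by total FPKM and not by any label. It is given as a description. All 14 alpha genes had a lower mean in the 6 libraries. For 11 of 14 every one of the 6 lay below every one of the 18, against 3 of 22 beta genes and 10 of 21 gamma genes, and 0 of 57 members were higher without overlap. Over the 27286 genes tested 16.3% were lower and 11.2% higher in the 6 without overlap.

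Pcdhac2 showed it most. Its level in the 6 libraries was 0.0796 FPKM at the lowest and 0.173 at the highest, with 9 to 26 reads, against 238 to 434 reads in the 18. The mean of 0.136 ± 0.032 FPKM was 20.5-fold below that of the 18. Pcdha9 had a mean of 0.0408 FPKM in the 6 and 0.443 in the 18, and Pcdha12 had 0.0636 and 0.56. For the 9 alpha genes with more than 3 reads in at least 1 of the 6 libraries, the 18 were 2.61 to 20.5-fold higher with a median of 8.03. The other 5, Pcdha1, Pcdha4, Pcdha7 and both Pcdha11 rows, had at most 3 reads in each of the 6, and no fold is given for them. Among the 9, the lowest fold (Pcdha8) rests on 0 to 5 reads in the 6 and the median (Pcdha6) on 0 to 7. Pcdhac1 also had 0 to 7 reads there, so such folds are rough. Reads were found for 12 to 14 of the 14 alpha genes in each of the 18 libraries and for 8 to 11 in each of the 6. In total the alpha genes summed to 4.98 to 7.37 FPKM in the 18 libraries and to 0.396 to 0.637 in the 6.

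Gamma and beta genes differed less. The summed gamma level was 34.5 to 43.0 FPKM in the 18 and 22.3 to 26.7 in the 6. Pcdhga8 was the gamma gene that differed most, with 1.19 to 2.01 FPKM against 0.41 to 0.562, and Pcdhgc3 had 4.78 to 6.14 FPKM against 4.17 to 5.13. The summed beta level was 22.5 to 27.5 FPKM against 17.0 to 20.2. Pcdhb2 was unlike its cluster, at 0.0959 to 0.527 FPKM in the 18 and 0 to 0.149 in the 6. Pcdhb12 had a higher mean in the 6, 1.23 ± 0.181 against 1.05 ± 0.203 FPKM, with overlap.

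On the log2(FPKM + 0.1) scale the median difference, the 6 minus the 18, was -1.50 for alpha, -0.64 for gamma and -0.46 for beta genes, against -0.07 over all genes tested. The split ran through every group. In each of the 4 groups the libraries of the 6 lay below all others of their group for 11 of 14 alpha, 13 of 21 gamma and 6 of 22 beta genes, as did 18.6% of all genes tested.

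**Figure D2:**
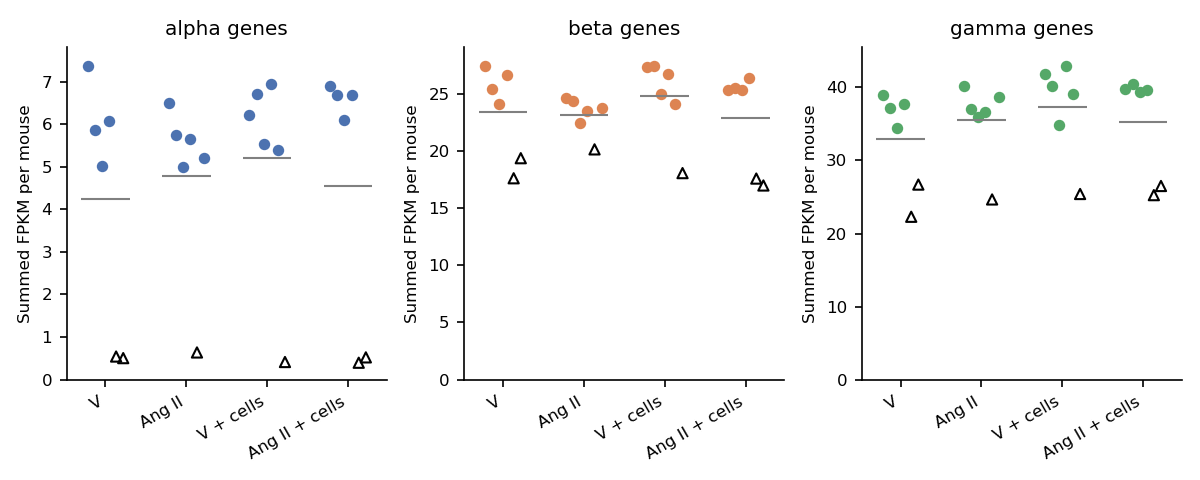
Summed FPKM of the alpha, beta and gamma genes in each mouse, by group (V, vehicle; Ang II, angiotensin II; cells, amnion epithelial cells). Filled circles are the 18 libraries of lower total FPKM, open triangles the 6 of high total FPKM, and grey bars the mean of 6 mice; the 6 triangles lie between 0.396 and 0.637 FPKM for the alpha genes, below every circle.

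What else differed between the subfamilies was where their countable bases lie. The unique bases of alpha genes were a median of 4100 bases from the 3′ end of the transcript and those of gamma genes 3394, both upstream of the shared constant exons, against 1858 for beta genes. Their GC content had a median of 52.9, 52.6 and 46.1%. Over the 56 members with unique bases the difference between the sets correlated with the distance at Spearman's rho = -0.51 and with GC content at -0.38. Within the subfamilies the distance gave rho = -0.29 for alpha, -0.21 for beta and 0.17 for gamma genes, so the relation was between the clusters more than within them. GC content gave -0.45 within the 14 alpha genes, 0.02 within the beta genes and 0.80 within the 20 gamma genes with unique bases. The mean FPKM in the 18 libraries gave -0.87 for alpha, -0.01 for beta and 0.33 for gamma genes. The number of unique bases gave -0.57, -0.17 and 0.25 in the same order. The log2(FPKM + 0.1) scale understates the difference of genes with low levels. All these correlations are descriptions over genes that share the same libraries, and the part of any of these properties in the difference was not tested. Pcdhb14, whose 8695 bases are all unique and lie a mean of 4348 bases from the end, differed by -0.58. Pcdhac2, at 4375 bases, differed by -3.62. These distances are not alike in kind. The bases of Pcdhb14 run to the 3′ end, and those of Pcdhac2 lie upstream of 2860 shared bases. The same holds between most beta genes and the alpha and gamma genes, also in the correlation over all 56 members.

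**Figure D3:**
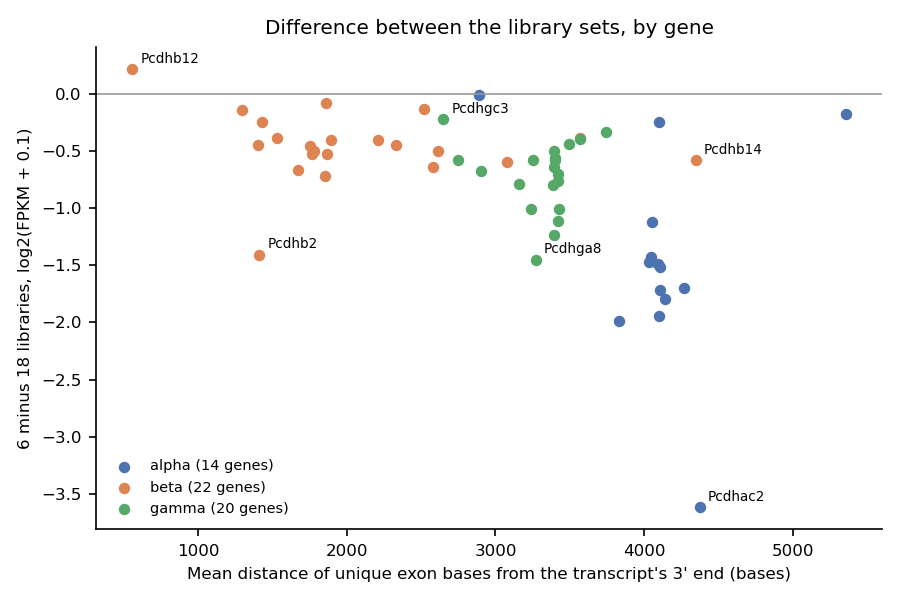
Difference between the 6 libraries of high total FPKM and the other 18 in mean log2(FPKM + 0.1), against the mean distance in bases of each gene's unique exon bases from the 3′ end of its transcript, 1 point per gene. Most alpha genes lie to the right and low, with Pcdhac2 at -3.62, and 3 of 14 (Pcdha4, Pcdha8 and Pcdha11 ENSMUSG00000102206) lie between -0.24 and -0.01. These 3 had mean levels of only 0.0136, 0.0392 and 0.00463 FPKM in the 18 libraries. Pcdhb2 is low at a short distance and Pcdhb12 lies above 0.

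Genes around the family also differed between the sets, as did many others. Over all genes tested 16.3% were lower and 11.2% higher in the 6 without overlap, with a median difference of -0.07. The 12 non-clustered protocadherins, which are single genes elsewhere in the genome, had a median difference of -0.28, with 3 of 12 lower without overlap (Pcdh9 12.7 ± 1.3 against 7.36 ± 0.614 FPKM) and 1 higher, Pcdh1 (26.2 ± 1.4 against 34.4 ± 2.48 FPKM). Of the 18 genes for promoter choice and chromatin looping of the clusters, 14 were lower without overlap and the median difference was -0.60. They include Ctcf, whose protein marks the protocadherin promoters, at 12.5 ± 0.634 against 7.91 ± 0.693 FPKM, and the cohesin subunit Rad21 at 25.0 ± 1.22 against 17.2 ± 0.654 FPKM. Of 19 partners and signalling genes 11 were lower and 2 higher without overlap. The neuron marker list went both ways: of 6 genes, 2 were lower and 3 higher without overlap, and its summed FPKM was 736 to 803 in the 18 and 814 to 856 in the 6. Among serotonin neuron markers 0 of 4 were without overlap (Tph2 2.00 ± 1.26 against 1.67 ± 0.834 FPKM). Erythroid markers were higher in the 6 for 5 of 5 genes by their means, and 0 of 5 were without overlap. Oligodendrocyte markers had a median difference of 0.48 with 3 of 5 higher without overlap, and meningeal fibroblast markers 0.44 with 2 of 5. Without overlap, 2 interneuron markers of 6 were lower and 3 higher, 2 astrocyte markers of 5 lower and 2 higher, 2 of 5 lower and 1 higher for both microglia and endothelium, and 0 of 6 choroid plexus markers lower and 2 higher. The part of any of these genes or cell types in the difference of the members was not tested.

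Angiotensin II was compared with vehicle to see whether the family differs in hypertension. No clustered protocadherin gene passed the test. With limma on log2(FPKM + 0.1) over all 27286 genes tested, 0 of 57 members reached an unadjusted p under 0.05, against 2.21% of all genes. An adjusted p under 0.05 was reached by 0 members and by 0% of all genes. The study, with DESeq, reported differentially expressed genes here and between angiotensin II mice with and without the cells. The fit used here called none after adjustment, so the 0 is not particular to the members. The median log2 fold change of the members was 0.09 and that of all genes 0.02. With the library set as a term the members' median was -0.02 and 1 of 57 passed the unadjusted threshold (3.46% of all genes). In the 18 libraries alone it was also 1 (3.86%).

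That gene was Pcdhb3, which also had the lowest p without the term. In vehicle mice its level was 0.973 FPKM at the lowest, 1.37 at the median and 1.57 at the highest, and in angiotensin II mice 0.806, 1.07 and 1.21. The groups overlapped through the 2 vehicle libraries that belong to the 6. In the 18 libraries the 4 vehicle mice had 1.53, 1.57, 1.34 and 1.40 FPKM and the 5 angiotensin II mice 1.15, 0.956, 1.13, 1.01 and 1.21, with no overlap. The log2 fold change was -0.29 (SE 0.143) with an unadjusted p of 0.0512 and an adjusted p of 0.994 in limma. All 6 angiotensin II mice were below the vehicle mean, and the exact permutation test of 6 against 6 mice gave p = 0.0519, two-sided, where 0.00216 is the smallest possible. With the library set as a term the log2 fold change was -0.36 (SE 0.087), with an unadjusted p of 0.000370 and an adjusted p of 1.0 in limma. The change is thus called only before adjustment. Its reads numbered 51 to 119 per mouse in these groups.

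The alpha genes had a median log2 fold change of 0.14 in this comparison without the term and -0.03 with it, and the gamma genes 0.17 and 0.06. Vehicle held 2 of the 6 libraries and angiotensin II 1. In the 18 libraries the alpha genes summed to 6.09 ± 0.972 FPKM in 4 vehicle mice and 5.62 ± 0.584 in 5 angiotensin II mice, gamma genes to 37.1 ± 1.89 and 37.7 ± 1.73, and beta genes to 25.9 ± 1.47 and 23.8 ± 0.83.

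**Figure D4:**
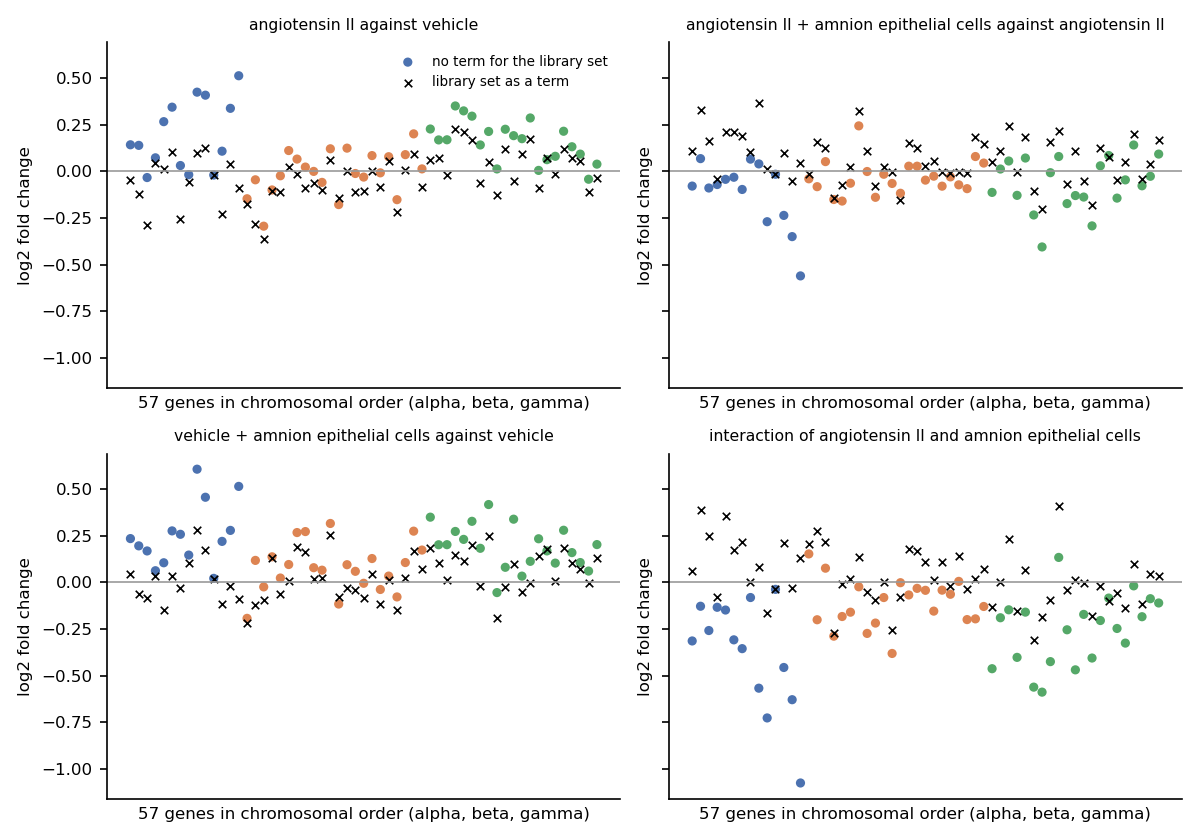
log2 fold change of each of the 57 genes in chromosomal order in the 4 comparisons. Coloured circles (blue alpha, orange beta, green gamma) come from the fit without a term for the library set and black crosses from the fit with it; the alpha circles stray from 0 in each comparison, to -1.08 in the interaction, and the crosses lie between -0.37 and 0.41 throughout.

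Amnion epithelial cells were given to angiotensin II mice to ask whether they alter the response. Again 0 of 57 members reached an unadjusted p under 0.05 without the term (2.54% of all genes) or an adjusted p under 0.05 (0% of all genes). The members' median log2 fold change was -0.05, and 0.05 with the library set as a term. With the term 4 of 57 passed the unadjusted threshold, all higher with the cells, against 3.90% of all genes, and in the 18 libraries 5 of 57 (4.61%), also all higher. These are 7.02 and 8.77% of the members, and no member had an adjusted p below 0.998 in these fits.

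Pcdhb7 had the lowest p in this comparison under each of these 3 fits. It ranged from 0.958 to 1.46 FPKM in angiotensin II mice (median 1.19) and from 1.07 to 2.06 in angiotensin II + amnion epithelial cells mice (median 1.42), and the ranges overlapped. The log2 fold change was 0.25 (SE 0.166, unadjusted p = 0.155 in limma), and 0.32 (SE 0.11, unadjusted p = 0.00766, adjusted p = 1.0) with the library set as a term. With the cells 5 of 6 mice were above the angiotensin II mean (exact permutation p = 0.139, two-sided). The other members past the unadjusted threshold with the term were Pcdhga3 (log2 fold change 0.25, SE 0.105), Pcdhga12 (0.20, SE 0.0955) and Pcdha9 (0.37, SE 0.176). In the 18 libraries Pcdha9 was 0.534, 0.509, 0.664 and 0.532 FPKM in 4 mice with the cells and 0.486, 0.359, 0.263, 0.422 and 0.329 in 5 without. Pcdhga3 and Pcdhga12 were not among the members past the threshold in the 18 libraries, where the others were Pcdhb2, Pcdhb13 and Pcdhb14.

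The cells were also tested without hypertension, in vehicle mice. None of the 57 members passed the unadjusted threshold without the term, a count of 0 against 2.41% of all genes, nor the adjusted one (0% of all genes). Without the term 50 of 57 members had a positive log2 fold change, with a median of 0.16 over members and 0.01 over all genes, and all 14 alpha genes were positive. With the term 34 of 57 were positive and the median was 0.02. Vehicle held 2 of the 6 libraries and vehicle + amnion epithelial cells 1. The lowest p belonged to Pcdhb11, at 0.342 to 0.767 FPKM in vehicle (median 0.629) and 0.609 to 1.12 with the cells (median 0.687). Its log2 fold change was 0.32 (SE 0.191, unadjusted p = 0.111, adjusted p = 0.995 in limma), all 6 mice with the cells were above the vehicle mean, and the exact permutation test gave p = 0.123, two-sided. With the term 1 of 57 passed (3.54% of all genes), Pcdhga6, higher with the cells by a log2 fold change of 0.25 (SE 0.0987, unadjusted p = 0.0179). The count in the 18 libraries was also 1 (4.18%), again Pcdhga6, at 2.18 ± 0.165 FPKM against 1.77 ± 0.39.

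Whether the cells acted differently in angiotensin II and vehicle mice was tested as the interaction. In the fit without the term 53 of 57 members had a negative interaction, with a median of -0.18 against -0.03 over all genes. The members share the same libraries, and the share of negative values over all genes is not given here. Of the 57 members 0 had an unadjusted p under 0.05 (2.54% of all genes) or an adjusted p under 0.05 (0%). The alpha genes had a median of -0.31 and Pcdhac2 -1.08. With the term the signs were 32 positive and 25 negative, the median 0.01 and the alpha median 0.11. The groups angiotensin II + amnion epithelial cells and vehicle hold 2 of the 6 libraries each and the others 1 each, and the first 2 of these groups enter the contrast with a positive sign and the others with a negative one. Pcdhgb2 had the lowest p, with -0.56 (SE 0.341, unadjusted p = 0.113 in limma) and -0.31 (SE 0.202) with the term. Its median was 1.04 FPKM in vehicle, 1.21 in angiotensin II, 1.17 in vehicle + amnion epithelial cells and 1.13 in angiotensin II + amnion epithelial cells mice. With the term 1 of 57 passed unadjusted (3.41% of all genes), Pcdhga7, and in the 18 libraries 1 (4.20%), Pcdha5.

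**Figure D5:**
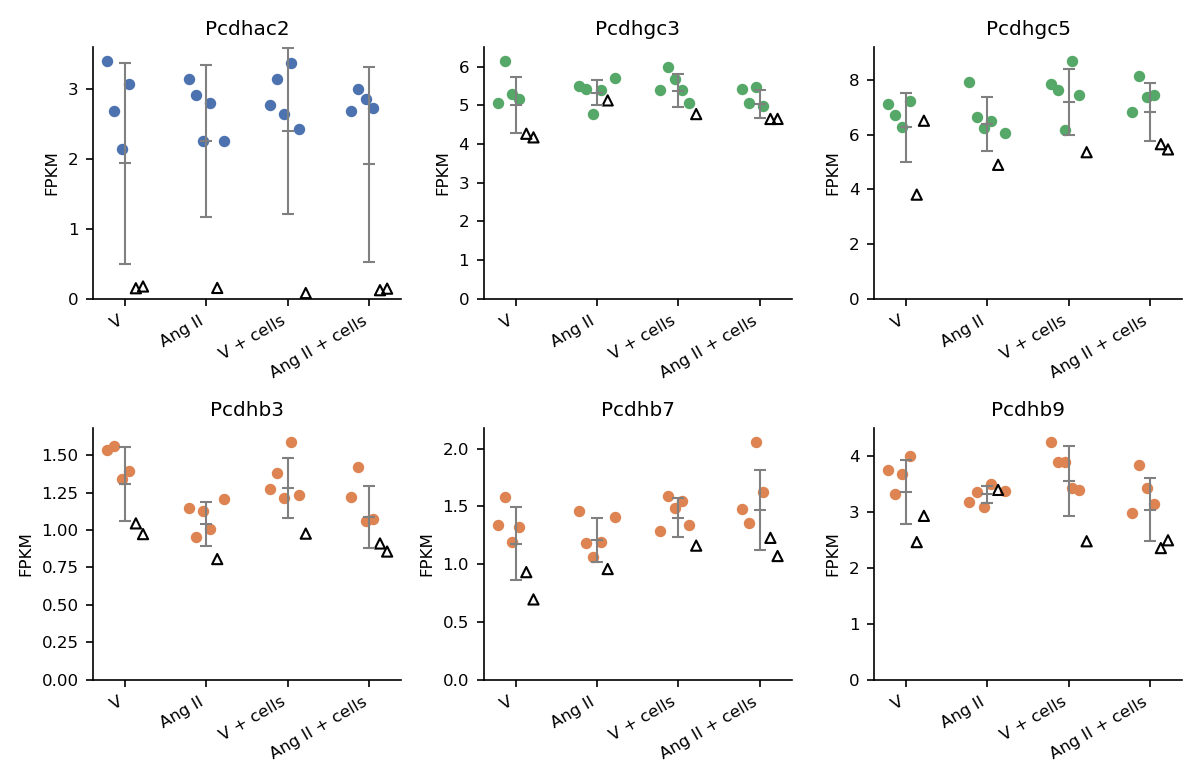
FPKM per mouse of 6 clustered protocadherin genes by group, with mean and SD of 6 mice in grey. Filled circles are the 18 libraries of lower total FPKM and open triangles the 6 of high total FPKM; Pcdhac2 is at or below 0.173 FPKM in all 6, while the Pcdhb3 triangles lie at 0.806 to 1.05 and every Pcdhb3 circle of the angiotensin II group lies below those of the vehicle group.

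The C-type genes, the part of the family used in most neurons, were described by group in the 18 libraries. Pcdhac2 was 2.82 ± 0.543 FPKM in vehicle (n = 4), 2.67 ± 0.399 in angiotensin II (n = 5), 2.87 ± 0.383 in vehicle + amnion epithelial cells (n = 5) and 2.82 ± 0.138 in angiotensin II + amnion epithelial cells mice (n = 4). Pcdhgc3 was 5.42 ± 0.493, 5.36 ± 0.346, 5.50 ± 0.349 and 5.24 ± 0.249 FPKM in the same order. Pcdhgc5 was 6.84 ± 0.428, 6.69 ± 0.739, 7.55 ± 0.914 and 7.46 ± 0.536 FPKM. None of the 5 C-type genes passed the unadjusted threshold in any comparison in the 18 libraries or in the other fits above. Pcdhb9, the highest beta gene, was 3.68 ± 0.284, 3.30 ± 0.162, 3.77 ± 0.363 and 3.35 ± 0.373 FPKM in the same order. Pcdhac1 was 0.289 to 0.347 FPKM and Pcdhgc4 2.50 to 2.72 FPKM by the group means.

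Lists of related genes had few or no calls. Over the 4 comparisons 2.21 to 2.54% of all genes passed the unadjusted threshold without the term and 3.41 to 3.90% with it. Without the term, none of the 12 non-clustered protocadherins, 18 promoter choice and looping genes and 19 partners and signalling genes passed the unadjusted threshold in any of the 4 comparisons. With the term 1 did, Rest, a repressor of neuronal genes, with the cells in angiotensin II mice (log2 fold change 0.32, SE 0.13, unadjusted p = 0.0239, adjusted p = 1.0 in limma). Neuron, interneuron, serotonin neuron, astrocyte, oligodendrocyte, microglia, endothelium and erythroid markers had 0 genes past it in any comparison under either fit. Of 6 choroid plexus markers Otx2 was lower with angiotensin II under the fit with the term (log2 fold change -0.35, SE 0.143). Of 5 meningeal fibroblast markers Lum was lower in vehicle + amnion epithelial cells than in vehicle mice under both fits (-0.34 and -0.28), and Col1a1 and Dcn were lower there with the term (-0.28 and -0.18). This list thus had 3 of 5 past the threshold there with the term, against 3.54% of all genes, and 1 of 5 without it (2.41%). Col1a1 was also past the threshold in the interaction under both fits (0.78 and 0.48) and, with the term, higher with than without the cells in angiotensin II mice (0.20). The part of these few non-neuronal cells in the values of the members was not tested, and none of these adjusted p-values was under 0.05.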

How the data were processed

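The authors deposited 1 table of FPKM values for the brains of 24 mice, with a gene length, name, biotype and position for each row. Per the labels and the study's methods, poly-A libraries were mapped to the mouse genome (GRCm38) and tested with DESeq 1.10.1. The aligner, the counter and the use of strand are not given in the sources used here. Groups and replicate numbers came from the sample titles and treatment labels. Separate mice are the replicates, so p-values are measured against the spread between mice. In the fit without the library set as a term, that spread includes the difference between the sets of libraries. Counts from that fit are therefore not measured against the spread between mice alone, and counts with the term are given beside them.

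FPKM times length fell on whole multiples of 1 read (tolerance 0.05 read) for 100% of values, which gave 16536449 to 25308700 reads per mouse. Values at or below 3 reads cannot be told from 0, and this covers counting error only. The deposited values are FPKM, so these were fitted, and the recovered reads served for an alternative. In R 4.3.3, limma 3.58.1 was run on log2(FPKM + 0.1) with eBayes and a trend. All 4 groups entered a single fit, for genes above 0 in at least 6 mice. Benjamini-Hochberg adjustment ran over all 27286 genes. A fold change on this scale understates the change of low genes. The fit was tested on simulated data. The simulation used a single dispersion and held no split into 2 sets of libraries, so it does not show how the fit behaves with that split. Permutation tests were exact, two-sided and over 924 splits. Exon overlaps came from GENCODE M21. Summaries were computed in Python 3.11.15 with numpy 2.4.6 and pandas 2.3.3, and figures drawn with matplotlib 3.10.9.

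The members and the lists were chosen with earlier results of these data known. The text gives full statistics for the member with the lowest p in each comparison (up to 5 where more had an unadjusted p under 0.05), levels by group for the C-type genes, and the highest and lowest gene of each subfamily. Members past the threshold only with the library set as a term or in the 18 libraries were named after their values were seen. Alternatives were another pseudocount, no filter or a stricter one, only the compared groups, a replicate block, median-ratio scaling, array weights, limma voom on the reads recovered from FPKM, the library set as a term, the 18 libraries alone and each mouse left out.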

Additional observations from a re-analysis of the deposited data

Results flagged for a closer look

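A value was looked at again where 1 mouse of a group of 6 lay far from the other 5 (Dixon's test at 95%), over the 13 members described by group and the 3 subfamily sums. Of 64 groups tested 12 values stood out. Chance gives about 3.2 for independent groups, but the sums include members that were also tested singly. For Pcdhb1, 1 read stands out by construction where the other 5 mice have 0, so the comparison with chance is rough. Of the 12 values 9 belong to libraries of the 6 with high total FPKM. Only 1 such library in a group can stand out in this way, so the groups that hold 2 of them are mostly not reached.

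Angiotensin II mouse 5 was low for Pcdhac2 (0.153 FPKM, next 2.25), Pcdhac1 (0.0221 FPKM, next 0.26), the summed alpha genes (0.637 FPKM, next 4.98) and the summed gamma genes (24.7 FPKM, next 35.9). Vehicle + amnion epithelial cells mouse 6 was low for Pcdhac2 (0.0796 FPKM, next 2.42), the summed alpha genes (0.413 FPKM, next 5.40) and the summed beta genes (18.1 FPKM, next 24.1). Vehicle mouse 5 was low for Pcdhgc5 (3.81 FPKM, next 6.30) and high for Pcdha11 (ENSMUSG00000102206) at 0.0232 FPKM, which is 3 reads. The other 3 values are of Pcdhb1, at 1 to 4 reads each: 0.0831 FPKM in vehicle mouse 1, 0.0186 FPKM in vehicle + amnion epithelial cells mouse 2 and 0.022 FPKM in angiotensin II + amnion epithelial cells mouse 1.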

How the results depend on the processing

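In each of the 4 comparisons 0 of 57 members had an adjusted p under 0.05 under every alternative run. The count at an unadjusted p under 0.05, 0 as reported in each comparison, was 1 for angiotensin II against vehicle in the 18 libraries, with array weights, with the library set as a term, with median-ratio scaling, with no filter, with a pseudocount of 0.01 or 1 and with the replicate block. For the cells in angiotensin II mice it was 5 in the 18 libraries, 4 with the library set as a term and 1 with array weights. For the cells in vehicle mice it was 1 under each of these 3, and for the interaction 1 in the 18 libraries, with the library set as a term and with the replicate block. Leaving out 1 mouse at a time gave 0 to 1, 0 to 0, 0 to 3 (3 without vehicle + amnion epithelial cells mouse 6) and 0 to 1 in the same order. Of all genes 3.86, 4.61, 4.18 and 4.20% passed in the 18 libraries, and 3.46, 3.90, 3.54 and 3.41% with the library set as a term. For the other alternatives the share of all genes is not given here, so their counts are not read against it. The members' median log2 fold change changed sign with the library set as a term in 3 of the comparisons, the exception being the cells in vehicle mice, and ranged from -0.02 to 0.15, -0.11 to 0.10, 0.02 to 0.21 and -0.31 to 0.03 over 11 alternatives. Pcdhb3 was lower with angiotensin II under all 23 alternatives and passed the unadjusted threshold under 12, with p from 0.00037 to 0.129. Same-numbered mice did not all deviate together (correlations of -0.09 to 0.53). The highest values, 0.50, 0.50 and 0.53, were of mice numbered 5, 5 and 6, where both mice of the comparison belong to the 6 libraries. Whether the numbers pair the mice is not given in the sources used here, and these correlations cannot decide it. Beside the counts above, the block put Pcdhgb2 past the threshold in the interaction (unadjusted p = 0.042 in limma). The beta share was 30.3% and the gamma share 62.2% of recovered reads, and 23.6% and 67.9% per unique base, against 37.6% and 55.7% of FPKM over 24 mice. Chosen after seeing the data, median-ratio scaling gave set differences of -1.47, -0.40 and -0.59 for alpha, beta and gamma genes, and a pseudocount of 0.01 gave -2.97, -0.51 and -0.75. Depth limits the lowest members, which have 0 to 4 reads per mouse.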

Other observations

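Pcdhgb8, the matching name listed as a polymorphic pseudogene and therefore no member, had 0.256 to 0.604 FPKM in the 18 libraries (median 0.4) and 0.0564 to 0.242 in the 6 (median 0.199), without overlap.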
